A study of Apostichopus japonicus with 9 samples.

Results

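The catalase and the superoxide dismutases of the *A. japonicus* body wall (AJBW) were examined as a group of 4 genes among the 53665 genes of the expression table. The genes were chosen by their identifiers and descriptions: catalase (MSTRG.11430), the Cu-Zn superoxide dismutase (Cu-Zn SOD, MSTRG.2916), the mitochondrial manganese superoxide dismutase (Mn SOD, MSTRG.2870) and a further gene described only as superoxide dismutase (further SOD, MSTRG.13674). The KEGG orthology number of the further SOD, K04565, is the one that the Cu-Zn SOD carries, and its GO terms name copper binding, zinc binding and the cytoplasm. No other gene of the table was described as a catalase or a superoxide dismutase. The 4 genes correspond to the predicted genes AJAP06309, AJAP04659, AJAP04630 and AJAP27182 of the sea cucumber genome, and they were built from 4, 2, 2 and 1 transcript models.

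The libraries came from pieces of body wall of market-bought sea cucumbers (*Apostichopus japonicus*, an echinoderm; body weight 150 ± 20 g), from which the viscera and the head had been removed. Body wall frozen without incubation served as the control (CON, 0 h), and other pieces were kept at 37 °C for 1 h (T_1h) or 3 h (T_3h) and then frozen. There were 3 libraries per group, each labelled as a biological replicate, and the pieces were tissue cut from the animal, not living animals. The labels and methods do not give the age of the animals, nor whether libraries of the same number came from 1 animal, so the p-values measure the spread between these libraries.

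Superoxide dismutases turn superoxide, the radical formed when oxygen takes up a single electron, into hydrogen peroxide and oxygen. Catalase, a heme enzyme concentrated in peroxisomes, then splits hydrogen peroxide into water and oxygen. In animals the copper and zinc enzymes work in the cytosol or outside the cell, while the manganese enzyme works in the mitochondrial matrix, next to the respiratory chain that leaks superoxide. Peroxiredoxins and glutathione peroxidases also remove hydrogen peroxide, drawing on thioredoxin and glutathione. Transcript levels were measured here, not enzyme activity.

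Expression was given as FPKM, the sequenced fragments of a gene scaled to the length of its transcripts and to the mapped fragments of the library, so levels can be set side by side between genes. The study gives the read totals of the libraries, but the table gives no counts per gene, and the number of fragments behind the value of a gene is therefore unknown. Collagen, fibrillin and laminin genes, the connective tissue markers of a body wall, summed to between 13801 and 32903 FPKM per library, and none of these 83 genes was at 0 in every library. The 8 libraries used for testing needed median-ratio factors from 0.594 in T_3h_2 to 1.49 in CON_3 to reach a common level, and genes reaching 1 FPKM numbered 12877 in T_3h_2 and 24915 in CON_3. T_3h_2 and CON_3 were the lowest and the highest, and CON_2 came next to CON_3, with a factor of 1.24 and 22818 genes. Each T_3h factor was below that of the CON library of its number (0.878 against 0.942, 0.594 against 1.24, 1.12 against 1.49). The T_3h comparisons are therefore given with the deposited FPKM and, for the main values, with median-ratio scaling too. As deposited, 241 genes were higher and 1870 lower past the thresholds in T_3h vs. CON. The split was 572 higher and 858 lower after median-ratio scaling, which brings the libraries to a common median ratio, and 634 higher and 769 lower after upper-quartile scaling, which brings their 0.75 quantile to a common value.

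The Cu-Zn SOD was the most abundant transcript of the group. Its FPKM was 80.7, 67.3 and 58.1 in CON, 60.0, 27.1 and 47.2 in T_1h, and 26.5, 23.2 and 40.0 in T_3h (libraries 1, 2 and 3 of each group). All 3 T_3h libraries lay below all 3 CON libraries, while 1 T_1h library, T_1h_1, lay above CON_3. The means were 68.7 ± 11.4 in CON, 44.8 ± 16.6 in T_1h and 29.9 ± 8.88 in T_3h (SD, n = 3 each).

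Catalase came next, with 29.3, 55.0 and 43.7 FPKM in CON, 38.8, 33.8 and 36.8 in T_1h, and 18.8, 12.3 and 24.3 in T_3h. The T_3h libraries lay below every CON library and every T_1h library, and the T_1h values lay inside the CON range. The means were 42.7 ± 12.9 in CON, 36.5 ± 2.49 in T_1h and 18.5 ± 6.0 in T_3h (SD, n = 3 each). At 1 h the mean of catalase lay within 1 SD of that of CON, and the mean of the Cu-Zn SOD did not.

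The Mn SOD had 24.9, 13.3 and 13.1 FPKM in CON, 17.7, 9.63 and 13.0 in T_1h, and 12.4, 7.59 and 11.8 in T_3h. The T_3h libraries lay below the CON libraries, but the highest of them, T_3h_1, was close to CON_3. The high CON mean of 17.1 ± 6.75 (SD, n = 3) rests largely on CON_1, and the means were 13.4 ± 4.05 in T_1h and 10.6 ± 2.61 in T_3h (SD, n = 3 each).

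The further SOD had 16.6, 14.2 and 9.52 FPKM in CON, 11.1, 12.7 and 14.7 in T_1h, and 10.0, 13.8 and 10.7 in T_3h. The groups overlapped at both times. The means were 13.4 ± 3.57 in CON, 12.8 ± 1.80 in T_1h and 11.5 ± 2.01 in T_3h (SD, n = 3 each).

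**Figure D1:**
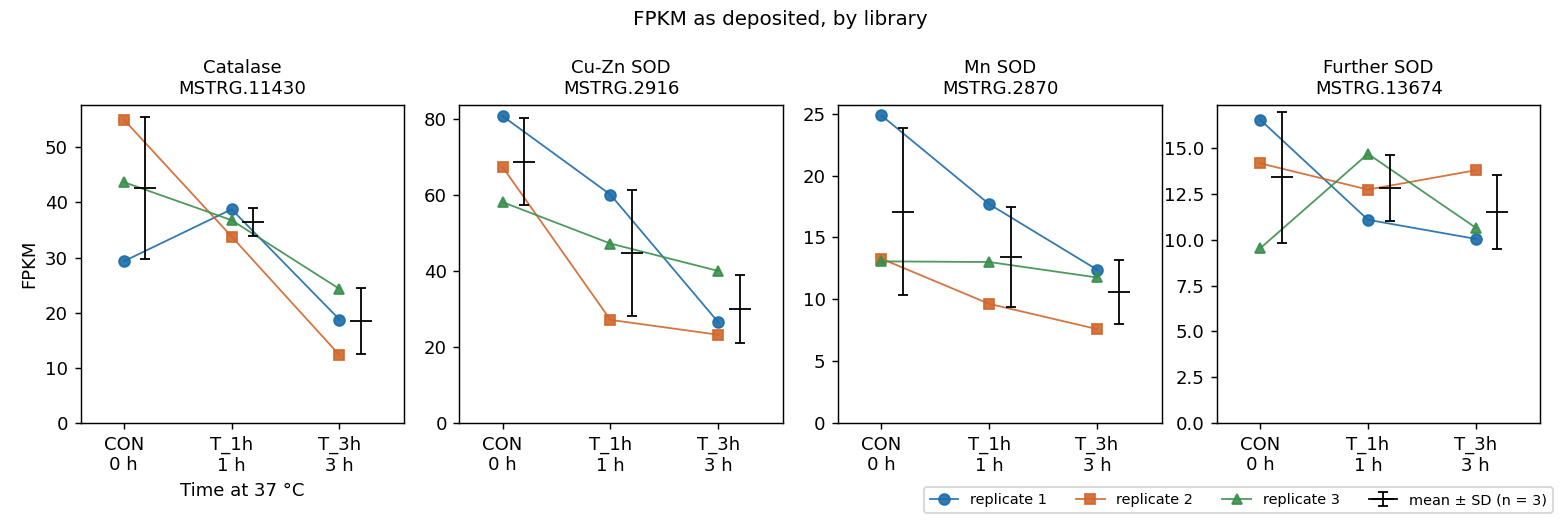
Deposited FPKM (vertical axis, from 0) of catalase and the 3 superoxide dismutases at 0, 1 and 3 h at 37 °C, 1 point per library, with lines joining libraries of the same replicate number and black bars giving the mean ± SD (n = 3). Catalase and the Cu-Zn SOD are below every CON library at 3 h (highest T_3h values 24.3 and 40.0, lowest CON values 29.3 and 58.1), the Mn SOD by a small margin, and the further SOD overlaps.

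The order of levels changed little across the libraries. The Cu-Zn SOD was the highest of the 4 in 8 of 9 libraries, the exception being T_1h_2, where catalase was above it, and the ratio of Cu-Zn SOD to catalase ranged from 0.80 to 2.75. Catalase was above the Mn SOD in 9 of 9 libraries and above the further SOD in 8 of 9. The Mn SOD was above the further SOD in 5 of 9 libraries, so these neighbours did not differ beyond their spread. Ranked from the top of the 53665 genes by group mean, the Cu-Zn SOD stood at 515 in CON, 658 in T_1h and 799 in T_3h, and catalase at 811, 807 and 1263. The Mn SOD stood at 2046, 2114 and 2170, and the further SOD, at 2588, 2220 and 1970, was the only one of the 4 with a better rank at 3 h than in CON.

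The comparison of T_3h with CON asks which of these transcripts differed after the longer incubation. With the deposited FPKM, catalase and the Cu-Zn SOD were lower past the thresholds (a change of 1 or more on the log2 scale in either direction, with an unadjusted limma p-value not above 0.05), and the Mn SOD and the further SOD were not. Catalase had a log2 fold change of -1.17 (SE 0.39, 95% interval -2.07 to -0.27), a level 2.25-fold lower in T_3h, with a Benjamini-Hochberg adjusted p of 0.737 in limma. The Cu-Zn SOD had a log2 fold change of -1.20 (SE 0.38, 95% interval -2.07 to -0.33), a level 2.30-fold lower, with an adjusted p of 0.716 in limma. These values are on the log2(FPKM + 1) scale. In a tissue sample, fewer cells of a type and less RNA per cell cannot be told apart.

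The Mn SOD had a log2 fold change of -0.61 in T_3h vs. CON (SE 0.40, 95% interval -1.51 to 0.30, limma adjusted p = 0.879). The further SOD had -0.19 (SE 0.35, 95% interval -0.99 to 0.62, limma adjusted p = 0.963). Without CON_1 the Mn SOD was at -0.32, and without T_3h_2 at -0.41. The interval of the Mn SOD covers both no change and the change seen for catalase, while that of the further SOD ends at -0.99 on its lower side. Whether the fold changes differ between the 4 genes was not tested.

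Among all 50973 genes tested, 4.14% passed the thresholds in T_3h vs. CON and 3.67% passed them and were lower, against 2 of the 4 genes here. In the fit limited to genes that averaged 1 FPKM or more, to which all 4 belong, 9.80% passed, and 8.65% passed and were lower. No gene reached an adjusted p under 0.05 in the 8-library limma fit or in the Ballgown-type test (a 2-group F-test with a library covariate). Unadjusted p-values were under 0.05 for 3157 genes in limma and for 2372 in the Ballgown-type test. If no gene differed, a share of 0.05 of the 50973 tested genes would be expected there by chance. The count of the Ballgown-type test was below that share, and the limma count was above it. With the replicate number as a block and all 9 libraries, 6.24% of all genes passed, and so did catalase and the Cu-Zn SOD, with adjusted p-values of 0.169 and 0.158 in limma, where 5 genes in all were under 0.05. With a minimum mean FPKM of 1 added to that fit, 1291 genes had an adjusted p under 0.05, and none of the 4 members was among them.

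Seen by overlap of the groups, catalase, the Cu-Zn SOD and the Mn SOD were lower in T_3h without overlap, as were 9.0% of the tested genes and 13.6% of those that averaged 1 FPKM or more. An exact two-sided permutation test of the 3 T_3h against the 3 CON libraries gave p = 0.1 for each of these genes, the smallest p that 3 against 3 allows, and p = 0.6 for the further SOD.

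The median over the whole table lay below 0 as well. The median log2 fold change in T_3h vs. CON was -0.17 over all tested genes and -0.39 over the 20319 genes that averaged 1 FPKM or more (expressed genes), against a median of -0.89 over the 4 members. Of those expressed genes, 9.80% had a log2 fold change below that of catalase, 9.19% below that of the Cu-Zn SOD, 34.1% below that of the Mn SOD and 66.6% below that of the further SOD. After median-ratio scaling these shares were 14.9%, 14.3%, 45.2% and 77.4%. In both, catalase and the Cu-Zn SOD lay towards the lower end of the expressed genes and the further SOD above their median.

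**Figure D2:**
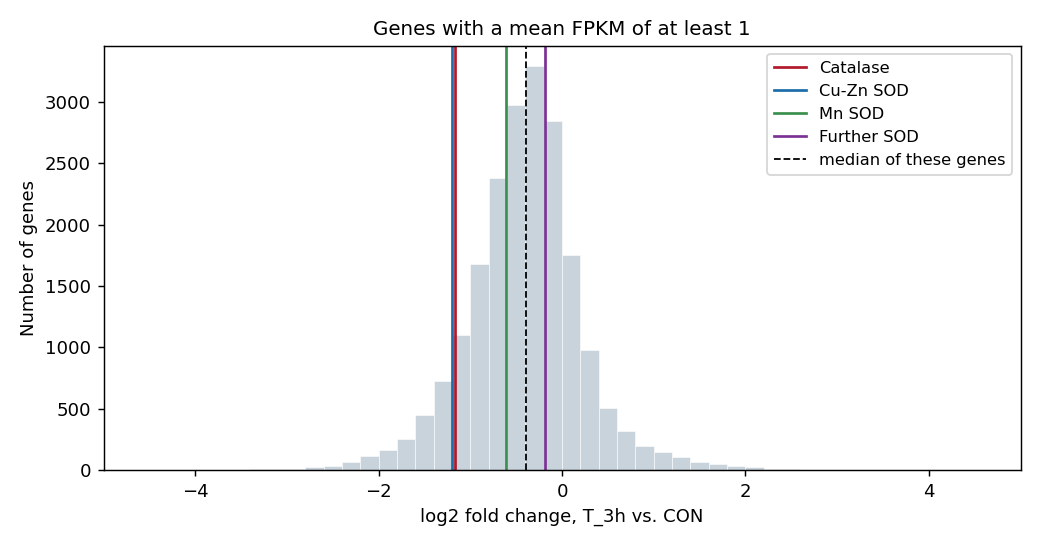
Number of genes (vertical axis) by log2 fold change in T_3h vs. CON (horizontal axis, bins of 0.2) for genes that averaged 1 FPKM or more, with a coloured line for each of the 4 members and a dashed line at the median. Catalase (-1.17) and the Cu-Zn SOD (-1.20) lie in the left flank, the Mn SOD (-0.61) left of the median of -0.39, and the further SOD (-0.19) right of it.

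After median-ratio scaling, which moved the median over expressed genes in T_3h vs. CON to -0.07, none of the 4 genes passed the thresholds, against 2.81% of all genes. The log2 fold change of catalase was then -0.67 (SE 0.28, limma adjusted p = 0.95) and that of the Cu-Zn SOD was -0.69. Catalase alone of the 4 was still at an unadjusted limma p-value under 0.05, but its change no longer reached 1 on the log2 scale. The Mn SOD was at -0.13 and the further SOD at 0.30, with the opposite sign to that of the deposited values. The Ballgown-type test gave -0.69 for catalase and -1.09 for the Cu-Zn SOD, neither past the thresholds. The direction of catalase, the Cu-Zn SOD and the Mn SOD in T_3h vs. CON was down in all of the 22 alternative settings run, and only the sizes and calls differed. Many of these settings cannot move the fold change: other filters, the trend option, separate fits, the block and the choice of T_1h libraries left it unchanged. Those able to move it were the pseudocount, the scalings, the Ballgown-type test and leaving out a CON or T_3h library.

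The scaled levels show where the scaling acts. Scaled catalase was 21.5, 21.0 and 22.0 in T_3h against 31.4, 44.6 and 29.5 in CON, and the T_1h libraries had 36.5, 33.2 and 34.4. The 3 T_3h libraries then agreed to within 1 unit, with a mean of 21.5 ± 0.50 against 35.2 ± 8.26 in CON (SD, n = 3 each), and still lay below every other library. Scaled Cu-Zn SOD was 30.3, 39.5 and 36.1 in T_3h against 86.4, 54.6 and 39.1 in CON, so the groups overlapped by a small margin. Scaled further SOD spread more, from 9.62 to 23.5 in T_3h against 6.42 to 17.7 in CON, the highest value being T_3h_2.

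**Figure D3:**
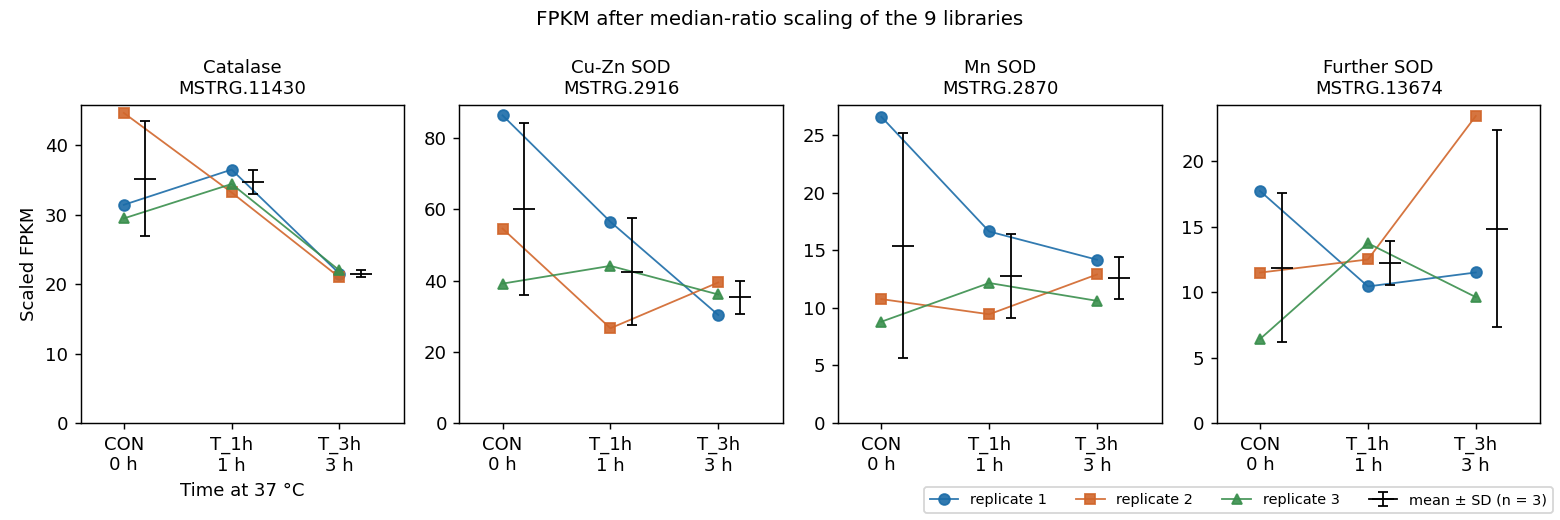
FPKM after median-ratio scaling of the 9 libraries (vertical axis, from 0) for the 4 genes at 0, 1 and 3 h at 37 °C, with points, lines and bars as for the deposited FPKM (mean ± SD, n = 3). The 3 catalase values of T_3h lie together between 21.0 and 22.0 below all other libraries, while the Cu-Zn SOD, the Mn SOD and the further SOD overlap between T_3h and CON.

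**Figure D4:**
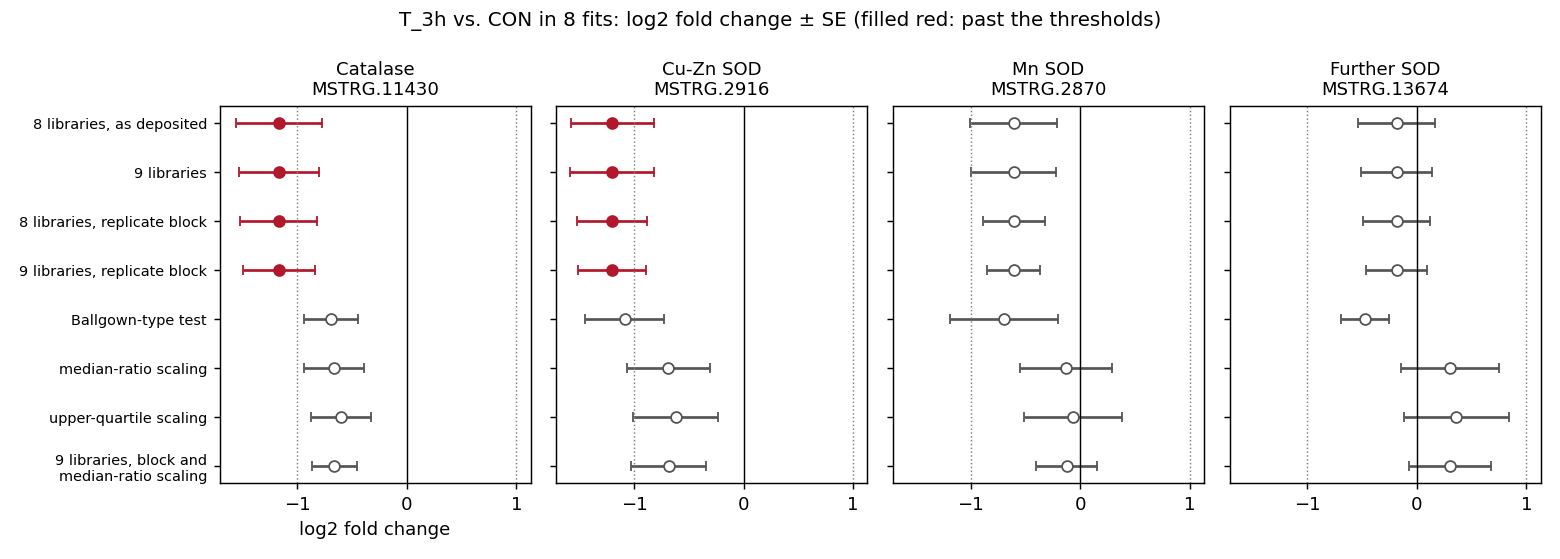
Log2 fold change ± SE in T_3h vs. CON (horizontal axis) of the 4 genes in 8 fits (rows), filled red where the thresholds were passed, with dotted lines at -1 and 1. Catalase and the Cu-Zn SOD pass in the 4 fits of the deposited FPKM by limma and in none of the other 4, and the further SOD moves right of 0 in the 3 fits with scaling.

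Libraries of the same number deviated together over all genes, so each T_3h library can be set against the CON library of its number. Catalase in T_3h was at 64.0%, 22.4% and 55.7% of CON for numbers 1, 2 and 3. The Cu-Zn SOD was at 32.8%, 34.5% and 68.8%, and the Mn SOD at 49.9%, 57.2% and 90.03%. With the deposited FPKM these 3 genes were lower in T_3h in 3 of 3 pairs. For groups without overlap any pairing gives that count, so it adds nothing to the overlap. The share of all genes lower in 3 of 3 pairs was not counted. The further SOD was at 60.7%, 97.3% and 112%, lower in 2 of 3 pairs. After median-ratio scaling, catalase was at 68.4%, 47.0% and 74.6% and the Cu-Zn SOD at 35.1%, 72.3% and 92.2%, both still lower in 3 of 3 pairs. For catalase this again follows from the lack of overlap. The scaled Mn SOD was at 53.3%, 119.9% and 120.6% and the scaled further SOD at 64.9%, 204.1% and 149.8%, each lower in 1 of 3 pairs. The largest drop of catalase was in pair 2, and without that T_3h library its log2 fold change was -0.92, no longer past the thresholds. Without CON_2 it was -0.97, also not past them.

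The comparison of T_1h with CON asks what differed after the shorter incubation, and none of the 4 genes passed the thresholds, against 0.871% of all tested genes. The Cu-Zn SOD had the lowest log2 fold change of the 4, -0.91 (SE 0.42, 95% interval -1.88 to 0.06). Catalase had -0.22 (SE 0.44), the Mn SOD -0.50 (SE 0.44) and the further SOD 0.06 (SE 0.39), and the limma adjusted p was 1 for each. T_1h_1 was left out of this fit. With it included the further SOD was at -0.035. Set against CON of the same number, the Cu-Zn SOD in T_1h was at 74.4%, 40.3% and 81.2%, lower in 3 of 3 pairs, or in 2 of 3 pairs after median-ratio scaling. Catalase was at 132%, 61.4% and 84.2%, higher in pair 1 and lower in the other two. The Mn SOD was at 71.1%, 72.5% and 99.6%, and the further SOD at 67.0%, 89.9% and 154%. Exact two-sided permutation tests over 3 T_1h and 3 CON libraries gave p = 0.2 for the Cu-Zn SOD, 0.4 for the Mn SOD, 0.6 for catalase and 1 for the further SOD. Without T_1h_3, which leaves 1 library in T_1h that is assumed to vary like the other groups, the Cu-Zn SOD was at -1.30, past the thresholds.

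In T_3h vs. T_1h none of the 4 genes passed either, against 0.728% of all tested genes. Catalase had the lowest log2 fold change, -0.95 (SE 0.44, limma adjusted p = 1), or -0.63 after median-ratio scaling. It was the only one of the 4 whose groups did not overlap, and it lay at 48.4%, 36.4% and 66.1% of T_1h by number, lower in 3 of 3 pairs with and without the scaling. Over all genes, 4.48% were lower in T_3h than in T_1h without overlap. The exact two-sided permutation p was 0.1, the smallest possible. For catalase this p and the count of 3 of 3 pairs both follow from the lack of overlap. Without T_3h_3, catalase was at -1.16, past the thresholds. The Cu-Zn SOD had -0.29, the Mn SOD -0.10 and the further SOD -0.24, and all of these changed sign after median-ratio scaling.

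Ratios between members within a library do not depend on how libraries are scaled. The Cu-Zn SOD made up 54.1%, 52.0% and 64.1% of the summed FPKM of the 3 superoxide dismutases in T_3h against 66.1%, 71.0% and 72.0% in CON, and the groups did not overlap. The T_1h libraries, at 67.6%, 54.8% and 63.0%, overlapped with both. The ratio of the summed FPKM of the 3 superoxide dismutases to catalase was 2.93 ± 0.60 in T_3h and 2.58 ± 1.38 in CON (SD, n = 3 each), so the ratio differed by less than the spread between replicates. The ratio of catalase to the further SOD was between 0.89 and 2.28 in T_3h and between 1.77 and 4.59 in CON, and overlapped. Cu-Zn SOD to Mn SOD was between 2.137 and 3.397 in T_3h and between 3.245 and 5.066 in CON, and overlapped. Cu-Zn SOD to catalase was between 1.411 and 1.882 in T_3h and between 1.222 and 2.75 in CON, and overlapped too. Among these ratios only the share of the Cu-Zn SOD did not overlap, and it was not tested. The sum itself does depend on the scaling. It was 52.0 ± 9.28 FPKM in T_3h against 99.2 ± 21.1 FPKM in CON as deposited, and 62.7 ± 11.4 in T_3h against 87.3 ± 39.3 in CON after median-ratio scaling (SD, n = 3 each), where the groups overlapped.

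Across the 9 libraries, which share groups and replicate numbers, the Cu-Zn SOD and the Mn SOD varied most alike (Pearson's r of log2(FPKM + 1) 0.837, Spearman's rho 0.933, n = 9). Catalase and the Cu-Zn SOD had r = 0.727 and rho = 0.7, and catalase and the Mn SOD r = 0.444 and rho = 0.6. The further SOD had r values between 0.03 and 0.26 with the other members. These are descriptions of 9 libraries and carry no test.

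Among 1959 described genes that averaged 5 FPKM or more, those closest to catalase over the 9 libraries were a tyrosine-protein phosphatase non-receptor type 23 gene (MSTRG.6289, r = 0.975), a tropomodulin-1-like gene (MSTRG.29874, r = 0.96; tropomodulins cap actin filaments) and an endophilin-A2-like gene (MSTRG.44264, r = 0.954). Closest to the Cu-Zn SOD was fructose-1,6-bisphosphatase 1, an enzyme of gluconeogenesis (MSTRG.10184, r = 0.972), followed by TMEM128, a transmembrane protein (MSTRG.17247, r = 0.969) and an ankyrin repeat and SOCS box protein 1-like gene (MSTRG.37250, r = 0.964). The Mn SOD was closest to an arylsulfatase B-like gene (MSTRG.20938, r = 0.984; a lysosomal enzyme in vertebrates), a ubiquitin-fold modifier-conjugating enzyme 1-like gene (MSTRG.35998, r = 0.977) and transmembrane protein 14C (MSTRG.40869, r = 0.964). The further SOD had no gene above r = 0.9, whereas catalase had 80, the Cu-Zn SOD 44 and the Mn SOD 22. Its closest genes were all of the ribosome: ribosomal protein S6 (MSTRG.26535, r = 0.863), 60S ribosomal protein L13a (MSTRG.10408, r = 0.814) and 40S ribosomal protein S27-like (MSTRG.37475, r = 0.803). For every member, the genes named were picked as the highest of 1959 correlations over only 9 libraries. A tie between them and the member was not tested.

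Outside the 4 members, MSTRG.45374 carries the orthology number of the Mn SOD, K04564, but is described as a hypothetical protein, and it was singled out after its values were seen. It was at 0.386, 0.411 and 0.309 FPKM in T_3h against 1.24, 1.86 and 0.507 in CON, and at 1.01, 1.27 and 0.165 in T_1h, well below the 4 members in every library. How reads were divided between it and the Mn SOD, or between the 2 genes of number K04565, is not given in the sources used here, so a split of reads between like sequences was not tested.

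The other enzymes that remove hydrogen peroxide were taken from lists by description. Of the 4 peroxiredoxins tested, 1 was lower past the thresholds in T_3h vs. CON and none was higher, where 8.65% of the genes averaging 1 FPKM or more were past them and lower. Peroxiredoxin-6 (MSTRG.8902), which reduces peroxides including those of phospholipids, was at 28.8, 59.0 and 39.3 FPKM in T_3h against 77, 143 and 80.4 in CON, without overlap (log2 fold change -1.22, SE 0.49, limma adjusted p = 0.798). After median-ratio scaling it was at -0.70 and did not pass. Its level was thus of the order of that of the Cu-Zn SOD in both groups. The peroxiredoxins 1, 4 and 5 had log2 fold changes of -0.76, -0.07 and -0.83 and did not pass.

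Of 3 genes described as glutathione peroxidases, 8 thioredoxin system genes and 12 glutathione supply genes tested, none passed in either direction in T_3h vs. CON. Over all tested genes 4.14% passed, so a count of 0 in lists this short is close to that share. A gene of such a function without such a description is in none of these lists. The thioredoxin list also holds thioredoxin-related transmembrane protein genes and a thioredoxin-like protein 4B-like gene. The more abundant glutathione peroxidase 1-like gene (MSTRG.30061) was at 9.61, 3.44 and 20.2 FPKM in T_3h against 6.26, 3.86 and 20.4 in CON, following the replicate number more than the group. The median log2 fold change was -0.80 over the peroxiredoxins, 0.14 over the glutathione peroxidases, -0.49 over the thioredoxin system and -0.26 over the glutathione supply, against -0.17 over all tested genes, -0.39 over those that averaged 1 FPKM or more, and -0.89 over the catalase and superoxide dismutase genes. After median-ratio scaling the medians were -0.29 over the peroxiredoxins, 0.56 over the glutathione peroxidases, -0.11 over the thioredoxin system and 0.10 over the glutathione supply, the last with the opposite sign, against -0.02 over all tested genes and -0.40 over the catalase and superoxide dismutase genes.

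Of 15 tested genes listed by description under sources of superoxide or hydrogen peroxide, 3 were lower past the thresholds in T_3h vs. CON and none was higher. Over all tested genes, 3.67% were past them and lower. All 3 were among the 6 listed genes that averaged 1 FPKM or more, a class in which 8.65% were past the thresholds and lower. After median-ratio scaling 1 of the 15 was lower past the thresholds, as were 858 of all 50973 tested genes. The 3 genes were an NADPH oxidase gene and 2 dual oxidase genes, from families of membrane enzymes that make superoxide or hydrogen peroxide from NADPH. The NADPH oxidase gene (MSTRG.25383) was at 4.51, 7.17 and 14.2 FPKM in T_3h against 19.5, 25 and 17.4 in CON, without overlap (log2 fold change -1.28, SE 0.47, limma adjusted p = 0.761). After median-ratio scaling it was at -0.80 and did not pass. The dual oxidase gene MSTRG.34373 was at 0.479, 0.374 and 2.02 FPKM in T_3h against 2.86, 9.43 and 7.36 in CON, also without overlap (log2 fold change -1.93, SE 0.50, limma adjusted p = 0.651). It still passed after median-ratio scaling, at -1.62, unlike any of the 4 members. The dual oxidase 1 precursor gene (MSTRG.42219) was at 9.65, 17.0 and 82.4 FPKM in T_3h against 73.2, 132 and 93.5 in CON, and overlapped through T_3h_3 (log2 fold change -1.95, SE 0.71, limma adjusted p = 0.761). After median-ratio scaling it was at -1.45, with an unadjusted limma p-value just above 0.05. The xanthine dehydrogenase/oxidase gene MSTRG.35888, whose product makes superoxide or hydrogen peroxide while degrading purines, was at -0.38 and did not pass. The list also holds a dual oxidase maturation factor (MSTRG.42216). It leaves out genes described as acyl-coenzyme A oxidase or hydroxyacid oxidase, which are in the Peroxisome list.

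None of the 7 genes listed by description for copper supply and peroxisomal import passed in T_3h vs. CON, where 4.14% of all tested genes did. The median log2 fold change of the 7 was -0.46, or -0.15 after median-ratio scaling. Genes described as peroxisome biogenesis factor 1 or 2 or as PEX13 are not among them but in the Peroxisome list. Among the regulators searched, only 2 genes described as hypoxia-inducible factor 1-alpha were found. Neither passed, and the more abundant one (MSTRG.11189) was at 146, 108 and 134 FPKM in T_3h against 95, 129 and 118 in CON.

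Of 93 tested genes of the KEGG pathway Peroxisome other than the 4 members, 5 were lower past the thresholds in T_3h vs. CON and none was higher, where 3.67% of all tested genes were past them and lower. After median-ratio scaling 1 was lower, phosphomevalonate kinase-like (MSTRG.12253, -1.02), and 1 was higher, an EF-hand calcium-binding domain-containing protein 1 gene (MSTRG.4139, 1.26). With that scaling 2.81% of all tested genes passed in either direction. Peroxisomal multifunctional enzyme type 2 (MSTRG.12086), which acts in fatty acid beta-oxidation, was at 3.56, 1.93 and 3.67 FPKM in T_3h against 7.49, 6.28 and 8.15 in CON, without overlap (log2 fold change -1.06, SE 0.35, limma adjusted p = 0.737). The others lower with the deposited FPKM were phosphomevalonate kinase-like (MSTRG.12253, -1.22), an isocitrate dehydrogenase (MSTRG.5078, -1.17), fatty acyl-CoA reductase 1-like (MSTRG.43848, -1.01) and, at a mean below 1 FPKM, bifunctional epoxide hydrolase 2 (MSTRG.10476, -1.02). Of the 39 peroxisome genes that averaged 1 FPKM or more, 35 had a lower level in T_3h, and their median log2 fold change was -0.57 against -0.39 over all genes of such a mean. Most genes of such a mean were therefore lower in T_3h too. Their exact share was not counted, and the 35 of 39 are not read as particular to the pathway. After median-ratio scaling 29 of the 39 peroxisome genes were lower, and the medians were -0.18 and -0.07 in that order. The median over all genes of such a mean was thus still below 0, and the count of 29 is read with the same limit. In T_1h vs. CON, 1 of the 132 tested genes of all these lists passed, against 0.871% of all tested genes. It was bifunctional epoxide hydrolase 2, at a mean below 1 FPKM, and it was lower. None of the listed genes passed in T_1h vs. CON after median-ratio scaling, against 0.802% of all tested genes.

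**Figure D5:**
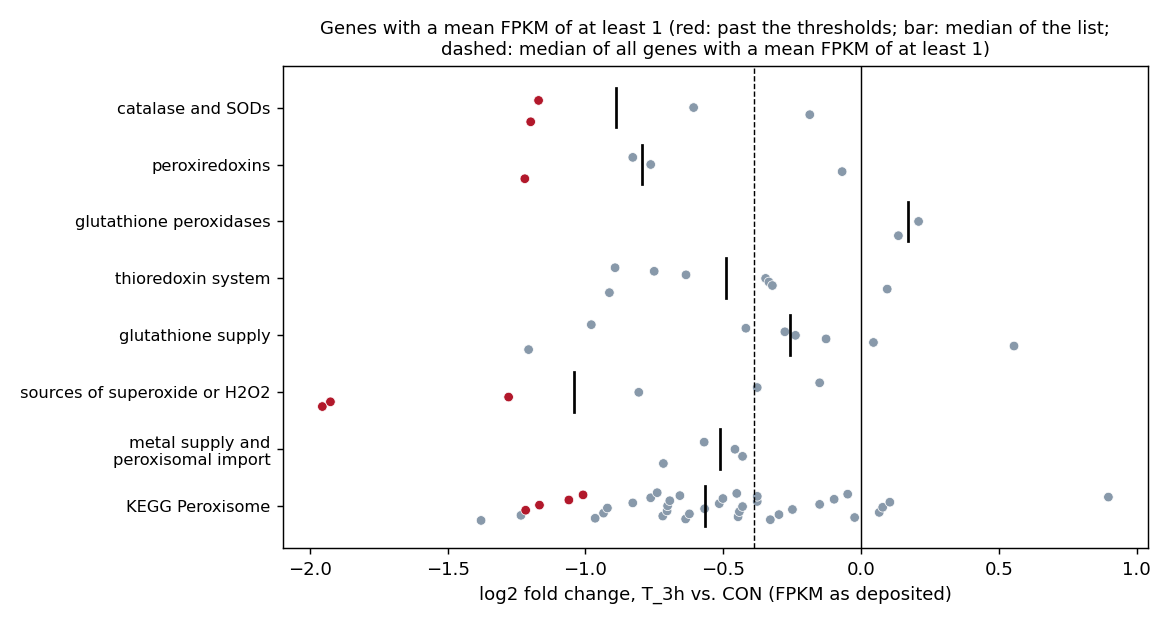
Log2 fold change in T_3h vs. CON (horizontal axis, deposited FPKM) of the genes in each redox list that averaged 1 FPKM or more (rows), 1 point per gene, red where past the thresholds, with a black bar at the median of the list and a dashed line at the median of all such genes (-0.39). The red points are catalase and the Cu-Zn SOD, peroxiredoxin-6, the NADPH oxidase and 2 dual oxidase genes, and 4 peroxisome genes, all lower in T_3h, while both glutathione peroxidases plotted lie right of 0.

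Markers of the cell types of the body wall overlapped between T_3h and CON. Summed FPKM per library was 208 to 279 in T_3h against 210 to 309 in CON for 36 muscle genes, 14705 to 32903 against 13801 to 24629 for 83 connective tissue genes, and 487 to 766 against 254 to 530 for 26 coelomocyte genes. It was 23.2 to 78.4 in T_3h against 50.2 to 82.3 in CON for 32 nervous tissue genes, and 20.3 to 58.2 against 24.0 to 74.9 for 90 genes of the epidermis and ciliated cells. The coelomocyte sums, at 640, 487 and 766 in T_3h against 254, 530 and 387 in CON, overlapped only through T_3h_2 and CON_2. That list was searched by complement C3 and factor B among others, which the paper reports as upregulated after incubation, so it does not read cell numbers alone. No gene of these lists was at 0 in every library, and the part of cell composition in the levels of the 4 members was not tested.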

How the data were processed

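RNA from 9 body wall samples was sequenced. The authors filtered out low-quality reads and those holding adaptor or primer sequence, aligned the reads to the *A. japonicus* genome with HISAT, assembled and merged transcripts with StringTie, and deposited FPKM per gene. The submitters' processing notes name HISAT2 2.0 and StringTie 1.3.0, and also Bowtie 0.12.2 and the mouse build mm8, which the methods do not mention. Groups and replicate numbers came from the labels.

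The values log2(FPKM + 1) entered limma 3.58.1 (R 4.3.3, trend option, two-sided), in 1 model of the 3 groups over 8 libraries. T_1h_1 was left out as in the study. A gene was tested where 2 or more of the 8 libraries had FPKM above 0, which gave 50973 genes, with Benjamini-Hochberg adjustment over all of them. The number of fragments behind each value is unknown, and the number of libraries sets the precision. Figures were drawn with matplotlib 3.10.9. The procedure was also run on simulated data with independent noise in each library. Those data held no likeness by replicate number and no scale differences between libraries, so the effect of either was not tested there.

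Deviations from the group means were shared by libraries of 1 number (r 0.595 to 0.722 over 9 pairs, mean 0.662). Over 18 pairs of different numbers the mean was -0.331. Centring each group on its own mean largely fixes the second mean once the first is known, so it is no separate evidence. The likeness by number is seen in the data, and a pairing is not stated in the labels. The replicate number was used as an alternative block.

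The alternatives were a pseudocount of 0.1, other filters on low values, all 9 libraries, 2 other scalings, a Ballgown-type test, separate fits for each pair of groups, a fit without the trend option, the block, and leaving out each library. The median-ratio scaling of all 9 libraries, and the block with a minimum mean FPKM of 1, were chosen after seeing the data. The genes examined and the lists were chosen with earlier results of these data known. Genes of a list were named where they passed the thresholds in any comparison at a mean FPKM of at least 1, up to 4 a list by smallest p, and for each member the 3 genes of highest r. Further list genes are given as examples chosen after their values were seen. The lists overlap in part: 14 of the 54 genes of the description lists are also in the Peroxisome list. No sequences are shown.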

Additional observations from a re-analysis of the deposited data

How the results depend on the processing

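In T_3h vs. CON, 2 of the 4 genes passed the thresholds with the deposited FPKM, and 0 passed with median-ratio scaling, upper-quartile scaling, the Ballgown-type test, the replicate block on all 9 libraries with median-ratio scaling, or all 9 libraries with median-ratio scaling. The cause was not tested. For catalase (-1.17) the log2 fold change was -0.67 with median-ratio scaling, -0.60 with upper-quartile scaling, -0.69 in the Ballgown-type test and -0.66 in both fits of 9 libraries with median-ratio scaling, block included. For the Cu-Zn SOD (-1.20) it was -0.69, -0.62, -1.09 and -0.68 in the same order. For the further SOD (-0.19) the sign turned to 0.30 with median-ratio scaling, 0.36 with upper-quartile scaling and 0.30 in the fits of 9 libraries with that scaling. With the replicate block alone, on 8 or 9 libraries, the calls of the 4 genes were the same in all 3 comparisons. With the block, all 9 libraries and a minimum mean FPKM of 1, the adjusted p was 0.0706 for catalase and 0.0599 for the Cu-Zn SOD in limma.

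Leaving out 1 library at a time gave 1 to 2 genes past the thresholds in T_3h vs. CON, catalase being lost without CON_2 or T_3h_2, and 0 to 1 in T_1h vs. CON (the Cu-Zn SOD without T_1h_3) and in T_3h vs. T_1h (catalase without T_3h_3). In T_3h vs. CON the log2 fold change then ranged from -1.41 to -0.92 for catalase, from -1.42 to -1.04 for the Cu-Zn SOD, from -0.76 to -0.32 for the Mn SOD and from -0.40 to -0.03 for the further SOD. In T_1h vs. CON it ranged from -1.30 to -0.52 for the Cu-Zn SOD and from -0.15 to 0.22 for the further SOD. In T_3h vs. T_1h it ranged from -1.16 to -0.70 for catalase, from -0.68 to 0.099 for the Cu-Zn SOD and from -0.30 to 0.099 for the Mn SOD.

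Values near 0 changed sign. In T_1h vs. CON, catalase (-0.22) was at 0.00012 with upper-quartile scaling and 0.0035 in both fits of 9 libraries with median-ratio scaling, and the further SOD (0.06) was at -0.035 with all 9 libraries, with or without the block and the minimum mean, and at -0.099 in the Ballgown-type test. In T_3h vs. T_1h, the Cu-Zn SOD (-0.29) was at 0.031 with median-ratio scaling, 0.063 with upper-quartile scaling and 0.0014 in the Ballgown-type test. The Mn SOD (-0.10) was at 0.20, 0.23 and 0.099 in these 3, and at 0.0054 in both fits of 9 libraries with median-ratio scaling. The further SOD (-0.24) was at 0.069 and 0.10 with the 2 scalings and at 0.17 in both fits of 9 libraries with median-ratio scaling.

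Over all genes, the count past the thresholds in T_3h vs. CON was 2111, against 3362 with a pseudocount of 0.1, 1403 with upper-quartile scaling, 785 in the Ballgown-type test, 3173 and 3213 with the block on 8 and 9 libraries, and 1232 to 3667 with a library left out. In T_1h vs. CON it was 444, against 772 with a pseudocount of 0.1, 273 with all 9 libraries, 712 in the Ballgown-type test, 791 with the block on 8 libraries, 228 with all 9 libraries and median-ratio scaling, and 370 to 747 with a library left out. In T_3h vs. T_1h it was 371, against 861 with a pseudocount of 0.1, 177 in the Ballgown-type test, 687 with the block on 9 libraries, 739 with the minimum mean added, 242 with all 9 libraries and median-ratio scaling, and 158 to 1564 with a library left out.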
